A study of Mus musculus with 16 samples.

Results

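The genes of the aminoacyl-tRNA synthetases were examined in RNA sequenced from 16 mouse osteosarcomas, 8 with and 8 without conditional deletion of *Arid1a*. They were taken by name from the table of gene counts, as the protein-coding genes whose symbol is a single capital letter followed by ars, with or without a closing 1 or 2, together with *Eprs*, *Farsa*, *Farsb* and *Tarsl2*. This gave 38 of the 25054 genes in the table. *Lars2* was set apart because its counts followed those of ribosomal RNA, which left 37 genes. Of these, 21 make cytosolic enzymes and 16 make mitochondrial enzymes. *Gars* and *Kars*, which each supply both compartments from a single gene, were counted with the cytosolic genes. All 38 passed the filter on low counts, as did 15413 genes in all.

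Both groups carried OsxCreERT2+/-, p53fl/fl and Rb1fl/fl, so that a tamoxifen-dependent Cre under the promoter of *Osterix*, a gene of the bone-forming lineage, could delete *Trp53* and *Rb1*. Tamoxifen was given at 400 μg/g at 1 month of age, and tumors came from mice older than 6 months, of both sexes. The 8 KO tumors also carried Arid1afl/fl and came from 8 mice, and their body site is not in the labels. The 8 WT tumors lacked the floxed *Arid1a* alleles and, by the animal codes in the labels, came from 4 mice. N42 gave 4 of them and N43 gave 2, while N215 and N25 gave 1 apiece, and the N25 tumor is labeled as lung. The values are counts per gene, given below as CPM, which is counts scaled to the TMM-normalized library size. In bulk tumors, fewer cells of a type and less RNA per cell cannot be told apart.

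Each synthetase joins an amino acid to the tRNAs that carry it, and so sets the meaning of the codons in translation. Nuclear genes make separate enzymes for the cytosol and for the mitochondria, and the enzymes fall into classes I and II by the fold of their catalytic domain. In mammals, 8 of the cytosolic genes examined here make enzymes of the multisynthetase complex, which is held together by the scaffold proteins Aimp1, Aimp2 and Eef1e1. Several cytosolic genes are known targets of Atf4, a transcription factor of the amino acid stress response.

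Several libraries stood apart. The total on genes was between 1109487 and 15059640 counts in the KO tumors and between 7806160 and 16962329 in WT. Massa and Grilka were the shallowest, and there the median synthetase gene had 7 and 17 counts, so that 3 counts were worth 6.69 and 4.03 CPM. Ribosomal RNA genes took from 0.437% to 18.4% of the counts in KO and from 0.0974% to 1.57% in WT. Summed genes of skeletal muscle reached 142300 CPM in Oregon and 90120 CPM in Montana (other KO tumors at most 208 CPM, WT from 13.1 to 7232), those of salivary gland 105400 CPM in Prince, those of lung 10340 CPM in Massa and 25950 CPM in the WT tumor N25, and those of liver 1204 CPM in Zelda. The 9 osteoblast markers, which should be high in an osteosarcoma, summed to between 445 and 42390 CPM in KO (median 4629) and between 1846 and 54730 CPM in WT (median 37300), and were lowest in Prince. All 5 macrophage markers had a lower mean in KO. *Arid1a* itself, counted over the whole gene, had between 107 and 270 CPM in KO and between 125 and 236 CPM in WT, so its total does not check the labels, since a count for the whole gene does not separate the floxed exons from the rest.

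In the WT tumors the cytosolic genes were the more abundant set. Per kilobase of exon their mean level ran from 1.12 CPM per kb for *Tarsl2* to 26.4 CPM per kb for *Gars*, with a median of 9.26. The mitochondrial genes ran from 0.881 CPM per kb for *Ears2* to 6.81 for *Iars2*, with a median of 2.06. Of 16 pairs of cytosolic and mitochondrial genes for the same amino acid, the cytosolic gene had the higher WT level in 15, and the exception was *Tarsl2* with *Tars2*. The medians in KO were 12.2 CPM per kb for the cytosolic and 3.64 CPM per kb for the mitochondrial genes. Over all 16 tumors *Gars* had the highest mean level with 24.0 CPM per kb and *Pars2* the lowest with 1.40, closely followed by *Ears2* with 1.41.

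Most synthetase genes had higher values in KO than in WT, but few passed the test. Of the 37 genes, 31 had a log2 fold change above 0 (83.8%, where 55.9% of all tested and 56.4% of protein-coding genes did), and their median was 0.37 against 0.10 for all tested genes. In edgeR's quasi-likelihood test 2 of the 37 rose at an adjusted p under 0.05 (5.41%, background 1.86%), namely *Cars* and *Tarsl2*, both cytosolic. None fell, where 2.15% of all tested genes did. At an unadjusted p under 0.05 there were 13 higher (35.1%, background 13.3%) and 0 lower (background 9.75%). DESeq2 called 9 higher (24.3%, background 7.76%), adding *Aars*, *Sars*, *Yars*, *Farsa*, *Vars2*, *Aars2* and *Ears2*, and 0 lower (background 4.77%). For none of the 37 did the KO and WT values fail to overlap, where 0.415% of all tested genes had no overlap and 0.208% had all KO values above WT.

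The median over the cytosolic genes was 0.49, with 19 of 21 above 0, and over the mitochondrial genes 0.29, with 12 of 16 above 0. Between classes the medians were 0.49 for the 17 genes of class I and 0.34 for the 19 of class II, *Eprs* having a domain of each class. The plot of fold changes gives 36 of the 37 genes with their standard errors. Beyond those described below, the cytosolic values were 0.66 for *Iars*, 0.61 for *Vars*, 0.37 for *Wars*, 0.34 for *Hars*, 0.29 for *Farsb*, 0.25 for *Dars*, 0.24 for *Nars*, 0.19 for *Rars* and 0.14 for *Qars*. None of these 9 was past the threshold.

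**Figure D1:**
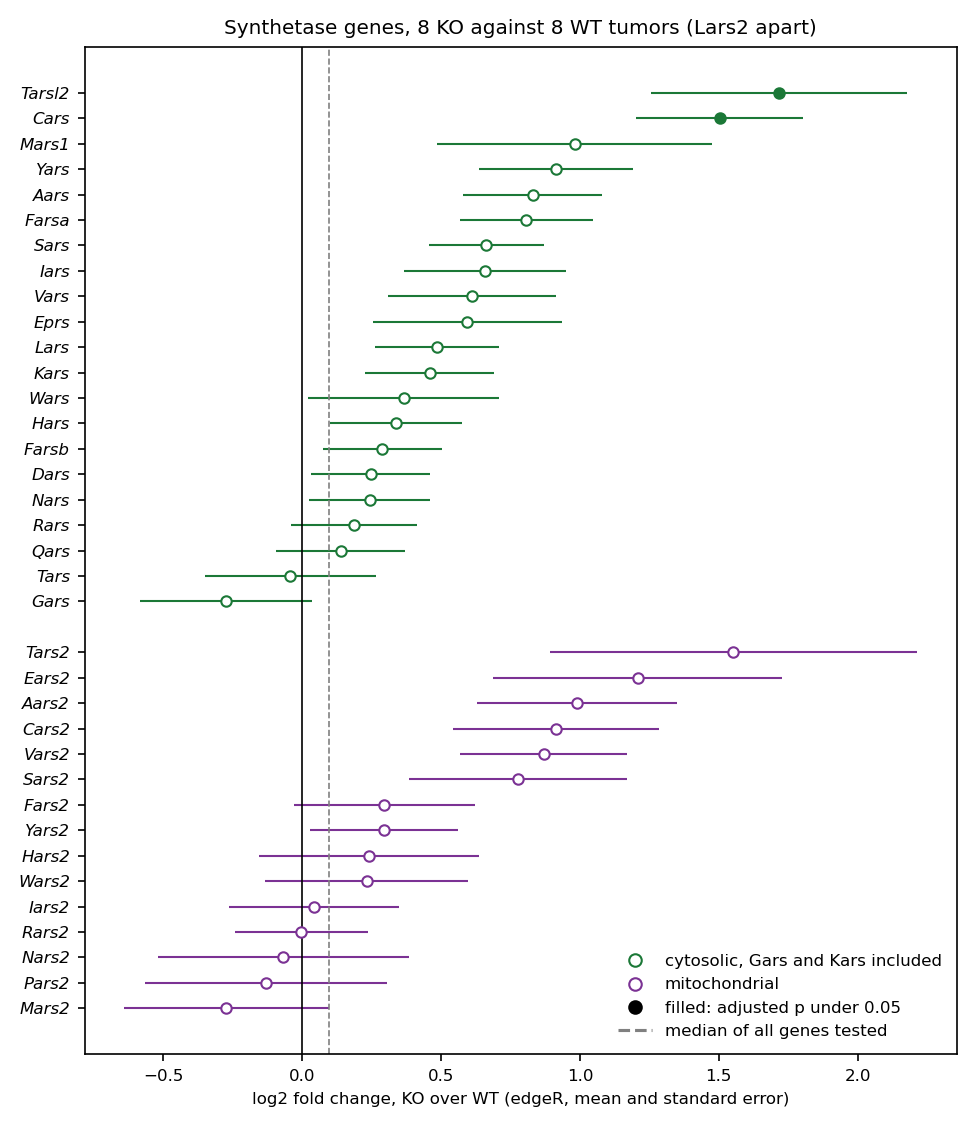
Log2 fold change of 36 synthetase genes between 8 KO and 8 WT tumors (x axis, edgeR estimate with its standard error), cytosolic genes above and mitochondrial genes below, filled where the adjusted p was under 0.05, with a dashed line at the median of all tested genes. Only *Cars* and *Tarsl2* are filled, and 30 of the 36 points lie right of 0.

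The shift was not shared by all KO tumors. Taken relative to the mean of the WT tumors on the log2 scale, the median of the 37 genes was 0.61 in Medusa, 0.57 in Montana, 0.52 in Ohio, 0.61 in Prince, 0.61 in Oregon, 0.19 in Zelda, 0.05 in Grilka and −0.62 in Massa. The WT tumors lay between −0.28 and 0.18, so 6 of the 8 KO tumors were above every WT tumor and Massa was below all of them. The median over all tested genes, relative to the median of the other tumors, was −0.52 in Massa and −0.28 in Grilka. It was between −0.08 and 0.04 in the other KO tumors and between −0.005 and 0.05 in WT. The reference differs from that of the synthetase medians, but the low value of Massa cannot be read as particular to the synthetase genes. Of the KO tumors with higher synthetase medians, Montana and Oregon had the most skeletal muscle RNA and Prince the most salivary gland RNA. Proliferation markers summed to 13.8 CPM in Montana, 17.9 in Prince, 40.0 in Oregon and 46.8 in Massa. Their sums were between 736 and 1893 CPM in the other KO tumors and between 120 and 790.5 in WT. With Medusa and Ohio as the only KO tumors, the median log2 fold change of the 37 genes was 0.54. Over all tested genes it was −0.16 in that fit. The fit left out the 6 KO tumors with raised genes of another tissue and kept all WT tumors. Massa, Grilka and Zelda, where the synthetase median was lowest, were among those left out, so the value cannot separate tissue from the choice of tumors. The part of tissue in the shift was not tested. Summed over the 37 genes, the KO tumors had between 850 and 2230 CPM and the WT tumors between 1088 and 1415 CPM.

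**Figure D2:**
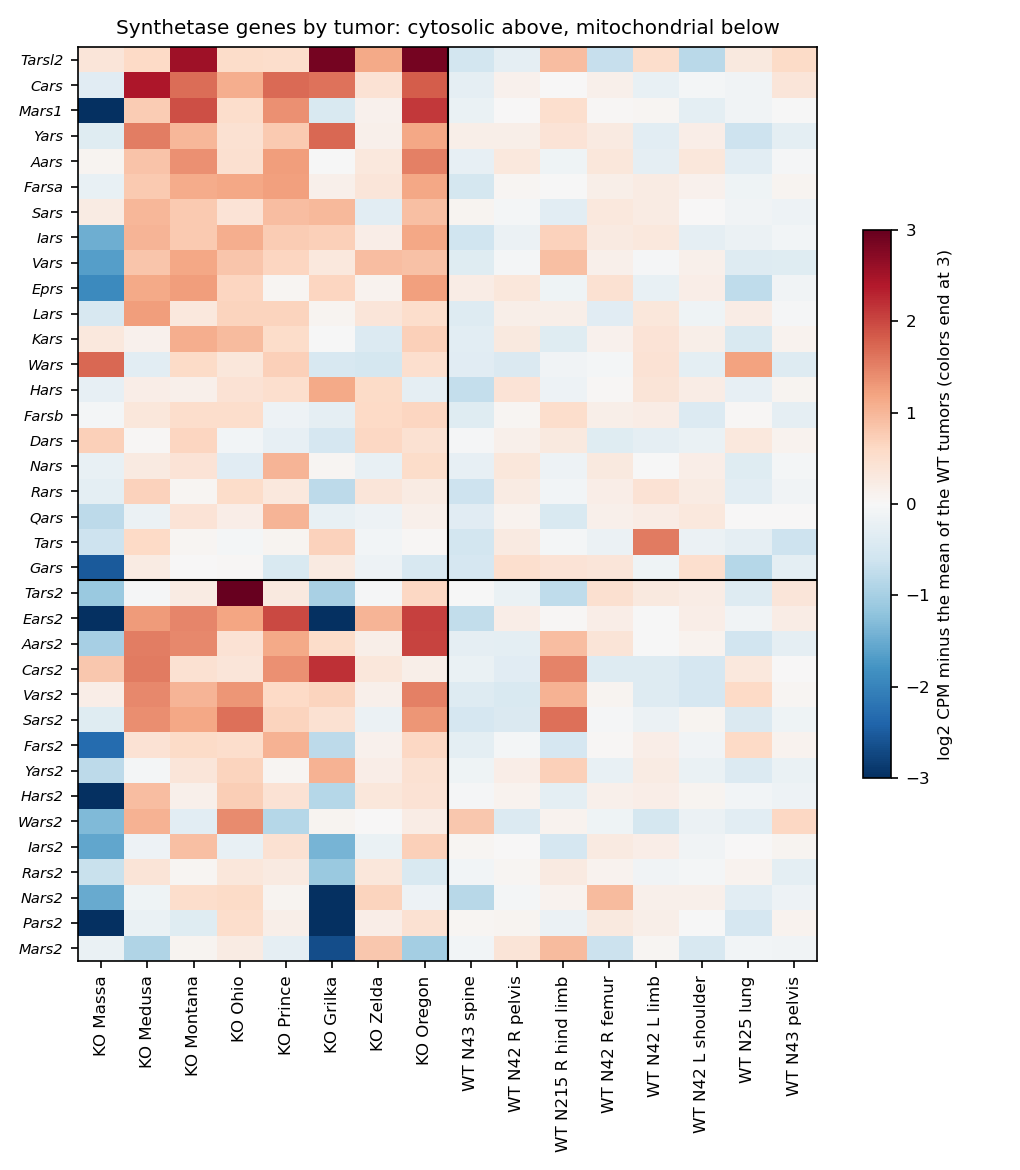
Heat map of 36 synthetase genes (rows, cytosolic above the line and mitochondrial below) in the 16 tumors (columns, KO left and WT right), colored by log2 CPM minus the mean of the WT tumors, with colors ending at 3. The column of Massa is mostly blue, the columns of Medusa, Montana, Ohio, Prince and Oregon mostly red, and the WT columns pale apart from single genes.

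*Cars* charges cysteine tRNA in the cytosol and lies on chromosome 7 of GRCm38, from 143557230 to 143600090, on the minus strand. It had 20.1 CPM in Massa, 34.5 in Zelda, 54.4 in Ohio, 79.2 in Grilka, 81.9 in Montana, 82.8 in Prince, 89.5 in Oregon and 138 in Medusa. The WT tumors had between 21.2 and 32.9 CPM, with a median of 25.04. Thus 7 of the 8 KO tumors were above every WT tumor, and Massa, where the value rested on 9 counts, was below them all. KO exceeded WT by 1.50 on the log2 scale (standard error 0.30, edgeR adjusted p = 0.0127), and an exact permutation test over the 12 mice gave p = 0.0222. The next gene on its left, *Nap1l4*, a histone chaperone gene 8124 bases away, also rose, by 0.75 on the log2 scale (adjusted p = 0.0369). The 24 tested genes within 1 Mb of *Cars* had a median of 0.67 with 3 called. Of all tested genes 4.01% were called, and their median was 0.10. Such a median was not particular to *Cars*, with 0.70 for *Farsa* (8 of 51 called) and 0.56 for *Aars* (4 of 28 called). For other synthetase genes it was lower, down to −0.47 for *Tars*. *Cars* was no longer past the threshold with counts summed per mouse, without the 4 tumors of N42, in limma-voom with mice as random effects, and with the ribosomal RNA share as a covariate (adjusted p = 0.358, 0.395, 0.231 and 0.499). Fold changes of 1.55, 1.52, 1.42 and 1.11 on the log2 scale were found there, and these fits called 10, 8, 17 and 7 genes of the whole table.

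*Tarsl2*, on chromosome 7 from 65644898 to 65692091 on the plus strand, makes a second cytosolic-type threonyl-tRNA synthetase. It had 51.7 CPM in Oregon, 51.0 in Grilka, 41.1 in Montana, 15.4 in Zelda, 10.6 in Medusa, 10.2 in Ohio, 9.96 in Prince and 8.92 in Massa, against 3.84 to 13.3 CPM in WT (median 7.04). The high values in KO were those of 3 tumors, and the lower 4 were inside the WT range. The log2 fold change was 1.72 (standard error 0.46, adjusted p = 0.0444), with an exact permutation p of 0.0566 over the mice. Oregon and Montana were also the tumors with the most skeletal muscle RNA, while Grilka had 208 CPM of those genes, below the WT median of 1509. Without Montana and Oregon the log2 fold change was 1.18 (adjusted p = 0.164), and it was 0.43 when KO was limited to Medusa and Ohio (adjusted p = 0.605). This limit took out Grilka too, where salivary gland genes summed to 376 CPM against at most 109 CPM in WT. *Tarsl2* missed the threshold in 17 of 28 alternatives, among them those without Montana, Grilka or Oregon (adjusted p = 0.0824, 0.0739 and 0.0966) or without any 1 of the N42 and N43 tumors (from 0.0640 to 0.0971). In Grilka the value rested on 38 counts, and the 12 tested genes within 1 Mb of *Tarsl2* lay a median of 1.91 above the other tumors on the log2 scale. *Tarsl2* shares 120 exonic bases with *Tm2d3* on the same strand, which had a log2 fold change of −0.17.

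*Aars*, *Farsa*, *Sars* and *Yars* came closest to the threshold, and were picked out after their values were seen. *Aars*, for alanine, had between 49.7 and 144 CPM in KO (median 80.9) and between 40.3 and 64.0 CPM in WT (median 47.3), and its highest values were in Oregon and Montana. Its log2 fold change was 0.83 (standard error 0.25, adjusted p = 0.0662). *Farsa*, which makes the catalytic subunit of the cytosolic phenylalanine enzyme, had between 13.4 and 37.1 CPM in KO (median 30.5) and between 10.8 and 18.5 in WT (median 16.5), with 6 KO tumors above every WT tumor and Massa and Grilka inside the WT range. Its log2 fold change was 0.81 (adjusted p = 0.0618), while that of *Farsb*, the gene of its partner subunit, was 0.29 (adjusted p = 0.441). *Sars*, for serine, had a log2 fold change of 0.66 (adjusted p = 0.0726), and *Yars*, for tyrosine, of 0.91 (adjusted p = 0.0678). Each of these 4 was past the threshold in DESeq2, and exact permutation over mice gave p = 0.0182 for *Aars*, 0.0263 for *Farsa*, 0.0222 for *Sars* and 0.0505 for *Yars*. *Yars* overlaps *C77080* by 30 exonic bases on the opposite strand, and how the counting treated strand is not given. *Aars* shares 1326 exonic bases with *Exosc6* on the same strand, and the part of *Exosc6* RNA in its counts was not tested.

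**Figure D3:**
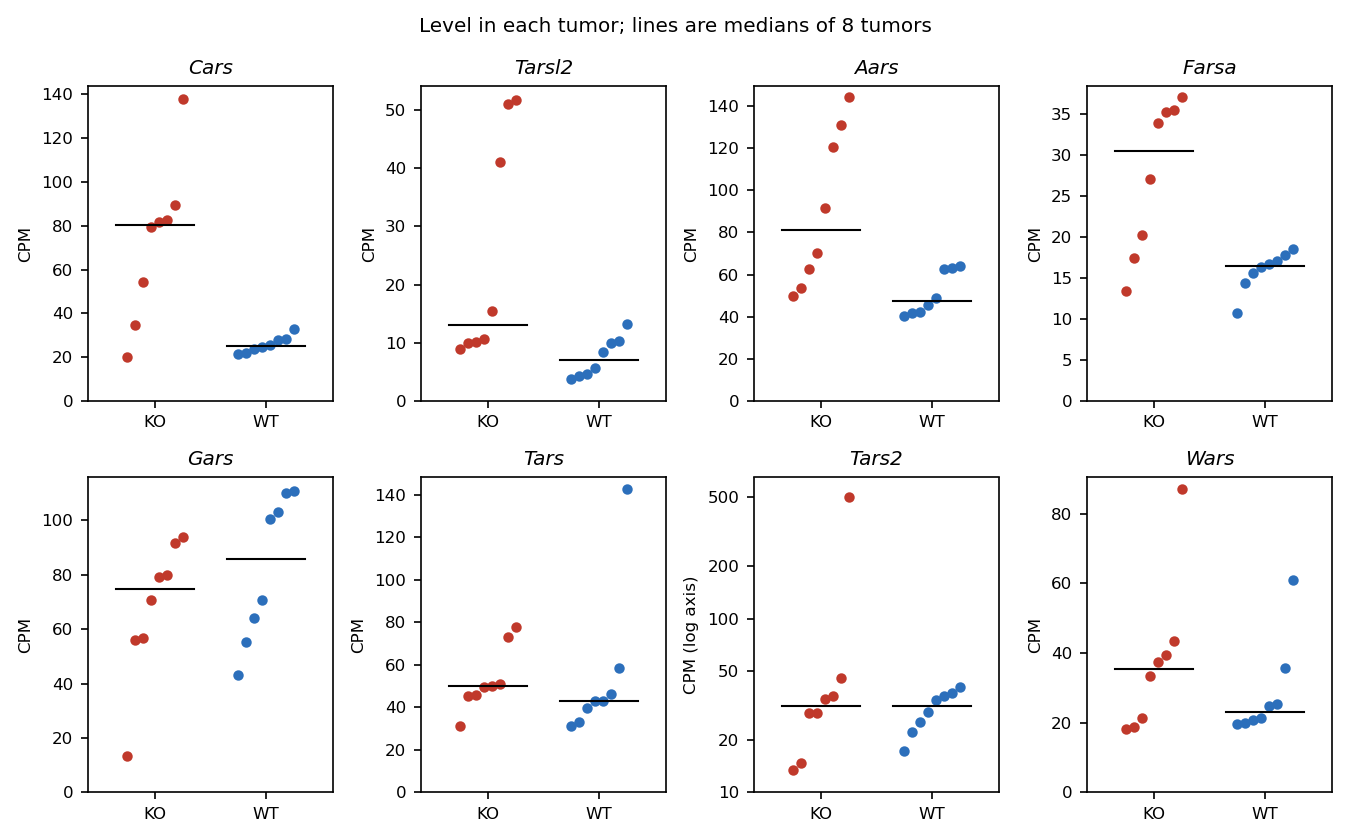
CPM of 8 synthetase genes (y axes, from 0 except for *Tars2*, which has a log axis) in each KO and WT tumor, sorted within a group, with the group medians as lines. *Cars* and *Farsa* are high in most KO tumors, *Tarsl2* in 3 of them, *Tars2* in 1 KO tumor and *Tars* in 1 WT tumor.

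All 8 genes of the multisynthetase complex had a log2 fold change above 0 (background 55.9%), from 0.14 for *Qars* to 0.98 for *Mars1*, with a median of 0.47. None was past the threshold, and 2, *Iars* and *Lars* (0.49), had an unadjusted p under 0.05 (background 13.3% higher). *Mars1*, for methionine, was the most variable of them, with 0 counts in Massa, 18.8 CPM in Grilka, between 28.2 and 67.1 CPM in the other KO tumors apart from Montana with 99.2 and Oregon with 113, and between 21.1 and 36.8 CPM in WT. It overlaps *Ddit3* by 68 exonic bases on the opposite strand. *Eprs*, whose product charges both glutamate and proline tRNAs, had 423 CPM in Montana, 417 in Oregon, 389 in Medusa, 280 in Ohio, 278 in Grilka, 192 in Zelda, 186 in Prince and 46.8 in Massa, and between 104 and 246 CPM in WT (median 185). It was above every WT tumor in 5 KO tumors and below them all in Massa, and the log2 fold change of 0.59 had a standard error of 0.34 (adjusted p = 0.305).

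*Kars*, for lysine in both compartments, overlapped between the groups. Its KO values were 80.4 CPM in Montana, 72.7 in Ohio, 61.8 in Oregon, 55.3 in Prince, 46.8 in Massa, 41.4 in Medusa, 37.6 in Grilka and 28.5 in Zelda, and WT lay between 27.8 and 50.4 CPM (median 41.0). The log2 fold change was 0.46 (standard error 0.23, adjusted p = 0.248), and 4 KO tumors were above every WT tumor. The scaffold genes had log2 fold changes of 0.53 for *Aimp1*, 1.27 for *Aimp2* and 0.73 for *Eef1e1*. Each had an unadjusted p under 0.05 (background 13.3% higher), with adjusted p-values of 0.198, 0.203 and 0.214. *Aimp1* had between 22.3 and 62.6 CPM in KO and between 17.5 and 38.5 in WT, and *Eef1e1* between 5.91 and 18.8 CPM in KO and between 3.13 and 11.01 in WT. For *Aimp2*, Oregon alone had 89.8 CPM and Montana 23.5, the other KO tumors had between 2.23 and 13.5 CPM and WT between 5.06 and 17.1. Without Oregon and Montana the log2 fold change of *Aimp2* was −0.08 (adjusted p = 0.940).

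*Gars*, the most abundant synthetase gene per kilobase of exon, had the most negative log2 fold change, −0.27 (standard error 0.31, adjusted p = 0.639). It lies on chromosome 6 from 55038007 to 55079500, plus strand, and makes the glycine enzyme of both compartments. Its KO values were 94.0 CPM in Grilka, 91.9 in Medusa, 79.9 in Ohio, 79.1 in Montana, 70.6 in Zelda, 56.7 in Prince, 56.2 in Oregon and 13.4 in Massa, and WT lay between 43.2 and 111 CPM with a median of 85.8. The groups overlapped, and 4 WT tumors were above every KO tumor. The value turned to 0.07 without the tumors of N42 and to 0.02 with Medusa and Ohio as the only KO tumors. The other genes below 0 were *Mars2* (−0.27), *Pars2* (−0.13), *Nars2* (−0.07), *Tars* (−0.04) and *Rars2* (−0.003), none past the threshold.

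*Gars* and *Tars*, with log2 fold changes below 0, and *Aars*, which was near the threshold, hold the same short element before their start. The letters TGATGNAA, the core of the composite element bound by Atf4 with C/EBP factors, were searched on both strands of the RefSeq windows from 250 bases before to 50 bases after the start, which were at hand for 28 of the 38 genes and not for *Cars*. They were found in 5 of the 28 genes (17.9%), in *Aars*, *Gars*, *Iars*, *Tars* and *Yars*, against 4.51% of 27025 genes (3.97% of 32851 windows). The E-box CACGTG was also found in 5 of the 28 (17.9%), in *Aars*, *Ears2*, *Farsb*, *Iars* and *Tars*, against 8.09% of genes (7.15% of windows), and no match of the 2 motifs overlapped. The stretches around the element are given below 5′ to 3′ on the strand of the gene, for the 3 genes where it lies wholly before the start. Capitals mark the element, which reads TGATGNAA on the opposite strand, and the build is GRCm38.p6.
*Aars*, chr8:111033710-111033757, plus strand: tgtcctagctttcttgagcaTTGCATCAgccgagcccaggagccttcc
*Gars*, chr6:55037951-55037998, plus strand: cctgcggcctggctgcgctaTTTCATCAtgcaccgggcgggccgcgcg
*Tars*, chr15:11399659-11399693, minus strand: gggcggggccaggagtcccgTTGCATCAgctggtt
The element shown began 112, 30 and 15 bases before the start of *Aars*, *Gars* and *Tars*, and *Aars* held another match, TTTCATCA, that began 10 bases after its start. The matches in *Iars* and *Yars* began 8 and 4 bases after the start and are not shown. The log2 fold changes of the 5 genes that hold it were 0.83, −0.27, 0.66, −0.04 and 0.91 in the order *Aars*, *Gars*, *Iars*, *Tars* and *Yars*. Those of *Gars* and *Tars* were smaller than their standard errors, and differences among the 5 were not tested. A match describes these letters only, and binding was not measured.

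Among the mitochondrial genes none was past the threshold in edgeR. The larger log2 fold changes were 1.55 for *Tars2*, 1.21 for *Ears2*, 0.99 for *Aars2*, 0.92 for *Cars2*, 0.87 for *Vars2* and 0.78 for *Sars2*. Of the 16 mitochondrial genes 5, all of those just given but *Sars2*, were higher at an unadjusted p under 0.05, where 13.3% of all tested genes were. Further values were 0.30 for *Fars2*, 0.29 for *Yars2*, 0.24 for *Hars2*, 0.23 for *Wars2* and 0.04 for *Iars2*. *Ears2*, for glutamate, had 0 counts in Massa and Grilka, where 3 counts are worth more than its WT median of 4.82 CPM or nearly as much, and was above every WT tumor in the other 6 KO tumors. Without Massa and Grilka its log2 fold change was 1.51 (adjusted p = 0.0101). In 12 of the 16 partner pairs both the cytosolic and the mitochondrial gene had a log2 fold change above 0.

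*Pars2*, for mitochondrial proline and the gene with the lowest level, did not differ detectably. It had 0 counts in Massa and Grilka, which allows up to 6.69 and 4.03 CPM, and 3.57 CPM in Montana, 4.01 in Medusa, 5.31 in Prince, 5.36 in Zelda, 6.43 in Oregon and 6.78 in Ohio. The WT tumors had between 3.23 and 5.79 CPM (median 4.87), all below the limit in Massa, while 7 of the 8 were above the limit in Grilka. Its log2 fold change was −0.13 (standard error 0.44, adjusted p = 0.892).

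*Tars2*, the mitochondrial threonine enzyme on chromosome 3 from 95739976 to 95760206, minus strand, was decided by a single tumor. Ohio had 501 CPM on 5255 counts, whereas the other 7 KO tumors had between 13.4 and 45.3 CPM and WT between 17.2 and 40.4 CPM. Without Ohio its log2 fold change was −0.06 (adjusted p = 0.930), and DESeq2 gave 0.02 (adjusted p = 0.961). With Ohio and Medusa as the only KO tumors it was 3.08 and past the threshold (adjusted p = 0.0253). The neighbors of *Tars2* were high in the same tumor. Of 82 tested genes within 1 Mb, 67 were over 1 on the log2 scale relative to the median of the other 15 tumors, with a median of 2.41, while 15.2% of all tested genes in Ohio were over 1. *Rprd2*, 135 bases away, had 999 CPM in Ohio against a median of 97.9, and *Setdb1*, a histone methyltransferase gene, had 1061 against 58.0. *Ecm1*, 407 bases away on the other side, had 78.2 CPM against 76.0 and so did not follow.

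*Tars*, the main cytosolic threonine gene, was high in a WT tumor. The left limb tumor of N42 had 143 CPM, the other WT tumors had between 31.1 and 58.5 CPM and the KO tumors between 31.2 and 77.9 CPM. Of 16 tested genes within 1 Mb of *Tars*, 11 were over 1 in that tumor, with a median of 1.32, while 8.29% of all its tested genes were. Without this tumor the log2 fold change of *Tars* was 0.33 (adjusted p = 0.431). Over the 37 genes and 16 tumors there were 592 such pairs, in 50 of which the gene was over 1, and in 6 of these the neighbors' median was over 1 as well. The 1 Mb window was chosen after values of these genes were seen.

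**Figure D4:**
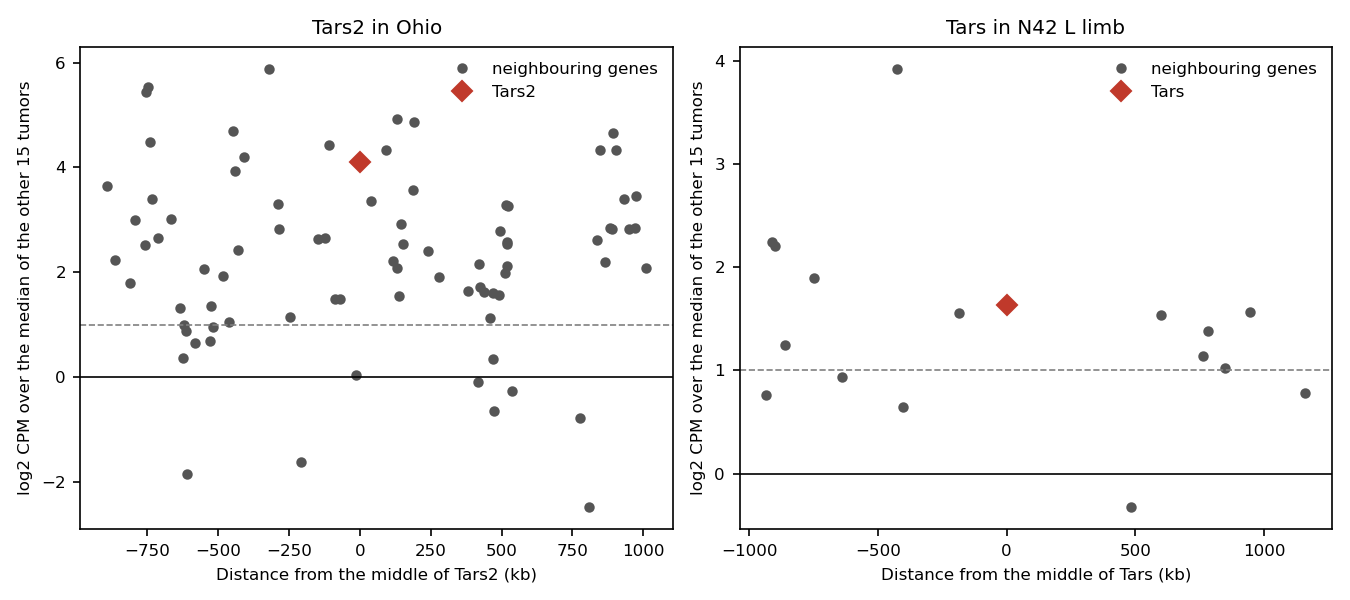
Log2 CPM over the median of the other 15 tumors (y axis) for tested genes within 1 Mb of *Tars2* in the KO tumor Ohio (left) and of *Tars* in the left limb tumor of N42 (right), by distance from the middle of the gene in kb, with the synthetase gene as a diamond and a dashed line at 1. In Ohio 67 of 82 neighbors and in the N42 tumor 11 of 16 lie above the dashed line.

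*Wars*, whose tryptophan enzyme is known to be induced by interferon, was highest in Massa with 87.0 CPM (39 counts) and in the WT lung tumor of N25 with 61.1 CPM, the 2 tumors with lung marker genes. The other KO tumors had between 18.2 and 43.4 CPM and the other WT tumors between 19.5 and 35.6 CPM. Its log2 fold change was 0.37 (adjusted p = 0.560). The part of lung RNA in these values was not tested.

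*Lars2*, for mitochondrial leucine, on chromosome 9 from 123366927 to 123462666, plus strand, behaved unlike the rest. It had 28340 CPM in Grilka, 23650 in Massa, 11820 in Oregon, 6422 in Medusa, 1932 in Prince, 611 in Montana, 144 in Ohio and 138 in Zelda. In WT it had 621 CPM in N215, 447 in the pelvis tumor of N43 and between 41.0 and 74.8 CPM in the other 6. All 8 KO tumors were above the WT median of 55.9 CPM and 5 were above every WT tumor. The log2 fold change was 5.71 (standard error 1.24, adjusted p = 0.0178), and exact permutation gave p = 0.00404 over tumors and 0.0424 over mice. With counts summed per mouse it was 5.23 (adjusted p = 0.490).

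The counts of *Lars2* kept nearly the same ratio to the counts of ribosomal RNA genes in every tumor. In KO there were 4.11 *Lars2* counts per 100 ribosomal RNA counts in Ohio, 4.64 in Zelda, 5.98 in Prince, 6.34 in Grilka, 6.48 in Montana, 6.65 in Medusa, 6.96 in Massa and 8.42 in Oregon. In WT the ratio ran from 4.05 to 6.73 with a median of 5.02. Thus it lay between 4.05 and 8.42 in all 16 tumors, while the ribosomal RNA share itself ran from 0.0974% to 18.4%. The mean log2 ratio was 0.26 higher in KO than in WT, and the mean log2 share of ribosomal RNA 3.77 higher (two-sided exact permutation test of the share, p = 0.00295 over tumors and 0.0303 over mice). With the log2 ribosomal RNA share as a covariate, the log2 fold change of *Lars2* was −0.07 (standard error 0.57). Since *Lars2* was set apart for following ribosomal RNA, the ratio and this value are descriptions. A search of 303 transcripts of the 38 genes against 360 transcripts of ribosomal RNA and related genes found no similar stretch in any of them, *Lars2* included. Genome sequence outside these transcripts was not searched, so the search cannot settle whether the *Lars2* locus holds sequence like ribosomal RNA. The 26 tested genes within 1 Mb of *Lars2* had a median log2 fold change of −0.02.

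**Figure D5:**
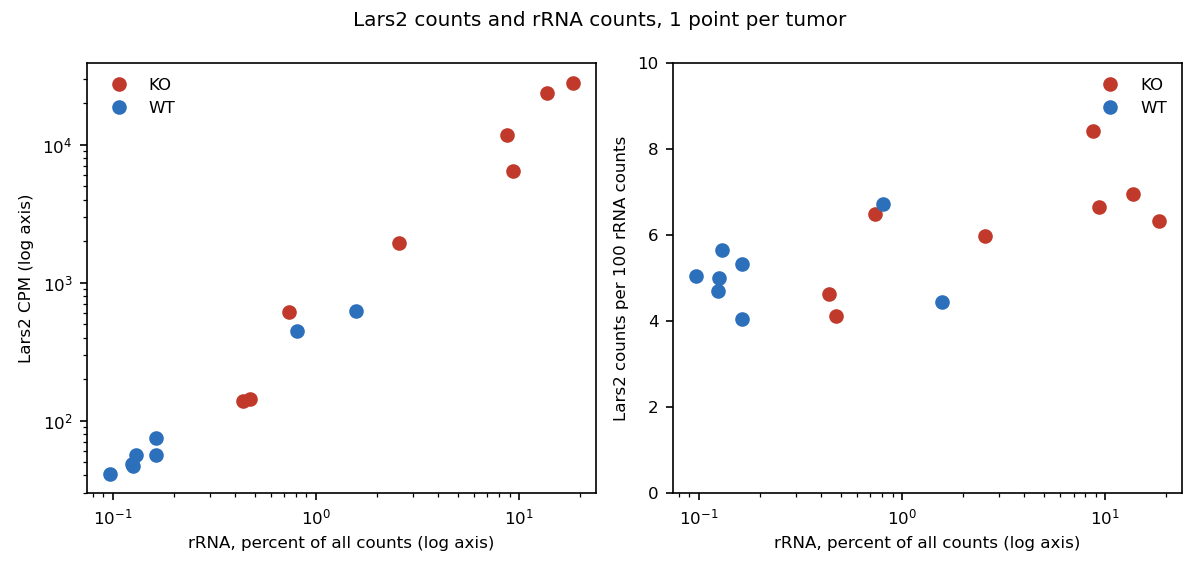
*Lars2* CPM (left, log axis) and *Lars2* counts per 100 ribosomal RNA counts (right) against the percent of all counts on ribosomal RNA genes (log axes), 1 point per tumor, KO red and WT blue. On the left the points follow a single line, and on the right all 16 lie between 4.05 and 8.42.

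Other genes of tRNA charging and elongation were examined as 7 lists with 51 genes, all of which were tested. Of these, 43 had a log2 fold change above 0 (84.3%, background 55.9%) and 1, *Tufm*, rose at an adjusted p under 0.05 (1.96%, background 1.86%). The median of the 51 was 0.35. *Tufm*, which makes the mitochondrial elongation factor that brings charged tRNA to the ribosome, had 60.7 CPM in Oregon, 51.8 in Montana, 37.6 in Prince, 29.0 in Massa, 22.4 in Medusa, 18.9 in Ohio, 16.1 in Grilka and 10.9 in Zelda, and between 10.1 and 17.5 CPM in WT (median 13.98). Grilka and Zelda were inside the WT range and the other 6 KO tumors were above it. Its log2 fold change was 1.21 (standard error 0.32, adjusted p = 0.0444), with an exact permutation p of 0.0364 over mice. It was past the threshold in 11 of 28 alternatives, with values from 0.58 to 1.34. With counts summed per mouse the adjusted p was 0.534, and without any 1 of Medusa, Montana, Prince, Oregon or the N42 and N43 tumors it was between 0.0517 and 0.0966. Oregon and Montana, its highest tumors, had the most skeletal muscle RNA, and without both the log2 fold change was 0.73 (adjusted p = 0.171).

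The 10 elongation factors all had a log2 fold change above 0 (background 55.9%), with a median of 0.61. Of these, *Tufm*, *Tsfm* (0.75), *Gfm2* (1.17), *Eef1d* (0.64) and *Eef1a2* (3.57) had an unadjusted p under 0.05 (background 13.3% higher). *Eef1a2*, the elongation factor form of muscle and nerve, had 1761 CPM in Oregon and 1273 in Montana, the tumors with the most skeletal muscle RNA, at most 5.37 CPM in the other 6 KO tumors, and between 1.31 and 63.6 CPM in WT (median 30.7). The part of muscle RNA in this was not tested. In DESeq2 its log2 fold change was −2.33 (adjusted p = 0.0905). *Eef1a1*, the most abundant gene of these lists, which delivers charged tRNA in the cytosol, had between 1206 and 4082 CPM in KO and between 1459 and 2488 in WT, a log2 fold change of 0.02. Of 4 genes of selenocysteine charging 3 were above 0, and *Secisbp2*, the most abundant, had a value of 1.04 (adjusted p = 0.0576). The 11 tRNA processing genes had a median of 0.43 with 10 above 0 and 0 called, with 0.01 for the most abundant per kilobase, *Hsd17b10*. The 4 editing and deacylase genes had a median of 0.32 and the 4 genes of the mitochondrial amidotransferase and formylase 0.35, with 0.29 for *Prorsd1* and 0.45 for *Gatc*, their most abundant members, and none called.

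Of the 15 genes of the amino acid stress response, 9 had a log2 fold change above 0 (background 55.9%) and 6 below, their median was 0.09, and 0 were called. The list was not tested against the synthetases. At an unadjusted p under 0.05 there were 0 higher (background 13.3%) and 3 lower (background 9.75%). The 3 were the cystine transporter gene *Slc7a11* (−2.18), its partner *Slc3a2* (−0.60) and *Trib3* (−0.89), with adjusted p-values of 0.155, 0.194 and 0.199. *Atf4* had between 64.7 and 197 CPM in KO (median 126) and between 68.9 and 129 in WT (median 93.5), a log2 fold change of 0.38 (adjusted p = 0.352). *Asns*, the asparagine synthetase that is a standard readout of Atf4, had 104 CPM in Prince, between 5.03 and 22.0 CPM in the other KO tumors and between 8.08 and 21.1 CPM in WT. Its log2 fold change was 0.75 (adjusted p = 0.411), and −0.17 without Prince. *Cebpb*, the most abundant of the list per kilobase of exon, had a value of −0.42 (adjusted p = 0.575).

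The synthetase genes varied more among KO than among WT tumors, for 35 of 37 genes. The SD of log2 CPM had a median over the genes of 0.75 in KO and 0.36 in WT, and of 0.22 among the 4 tumors of N42. Without Massa and Grilka the median SD in KO was 0.44, and it was the larger for 22 of 37 genes. The share of all tested genes with a larger SD in KO was not computed, so neither count can be read as particular to the synthetase genes. Leaving out Massa raised the number of genes called from 2 to 8, leaving out Zelda to 6 and leaving out the N215 tumor to 5, while the share called over all genes rose from 4.01% to 6.04%, 8.52% and 5.83%. WT tumors of the same mouse are not independent, and the mouse was therefore also used as the unit. With counts summed per mouse 34 of the 37 genes were above 0 (57.8% of all genes were), 6 had an unadjusted p under 0.05 (16.2%, background 3.87%), all higher and all cytosolic, and 0 passed the adjusted threshold in edgeR, where 0.0625% of all genes did.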

How the data were processed

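Per the paper's methods and the labels, RNA was depleted of ribosomal RNA with RiboZero, made into libraries with the TruSeq kit and sequenced from a single end. The authors aligned the reads to mm10 with Novoalign 2.08.01, allowing many alignments per read and keeping the best, and counted them with USeq on Ensembl gene models. They used DESeq2 1.26.0 on them. The deposited values used here are the authors' raw counts per gene, and whether the counting used strand is not given in the sources used here. No per-sample column was left out.

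The groups were taken from the labeled genotype. KO and WT were compared with the two-sided quasi-likelihood test of edgeR 4.0.16 in R 4.3.3 (TMM, and filterByExpr at 10 counts and a total of at least 15), with Benjamini-Hochberg adjustment over all 15413 genes tested and a threshold of 0.05. The biological coefficient of variation was 70.4%. Log2 CPM used a prior count of 2. DESeq2 1.42.0, limma 3.58.1 (voom with mice as random effects, statmod 1.5.0) and counts summed per mouse were alternatives. Exact permutation tests used all 12870 splits of the tumors or 495 of the mice, with smallest p-values of 0.000155 and 0.00202. The fits were tested on simulated counts. Where nothing says that tumors are independent, p-values measure the spread between these tumors.

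Positions and exon lengths come from GENCODE vM21 (GRCm38), where all 38 genes were found, with *Mars1* as Mars, and promoter windows from RefSeq. Genes were ranked by abundance per kilobase of exon. Limits from counts of 3 cover counting error only. The values of 1 gene of the rule, which is in the counts and medians, are not reported here. All genes of the rule were to be named, with values in each tumor for those past the threshold, *Lars2*, the most and least abundant, the lowest fold change, and *Kars*, *Gars* and *Eprs*, and, of the related lists, those past the threshold, *Aimp1*, *Aimp2*, *Eef1e1*, *Atf4*, *Asns* and the most abundant of each list. The members and lists were chosen with earlier results of these data known, and *Mars1*, *Tars*, *Tars2*, *Wars*, *Ears2* and the neighboring genes were singled out after their values were seen. A search of the class I proteins for their signatures was planned and not run, since protein sequences were not used here.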

Additional observations from a re-analysis of the deposited data

Results flagged for a closer look

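The groups examined were KO and WT for 37 genes, here with *Lars2* and without the gene whose values are not reported. In 14 of the 74 groups of 8 tumors, the highest or lowest tumor on the log2 CPM scale stood apart by Dixon's criterion. Chance alone meets it in about 1 in 20 groups of independent, normally distributed values. The groups here include 0 counts and WT tumors that share a mouse. How often all tested genes met the criterion was not computed, so the number is not particular to these genes. Massa was the low tumor in 6 groups of KO, with 46.8 CPM for *Eprs* (21 counts), 20.1 for *Vars* (9 counts), 15.6 for *Iars* (7 counts), 13.4 for *Gars* (6 counts) and 0 for *Mars1* and *Hars2*. The next lowest KO values of these genes were 186, 79.2, 49.6, 56.2, 18.8 and 9.40 CPM in the same order. Grilka was low for *Nars2*, with 0 counts where the next KO tumor had 4.46 CPM. These are the shallowest libraries, and the part of depth was not tested. In Ohio *Tars2* had 501 CPM against 45.3 in the next KO tumor. Among WT, the N215 tumor was high for *Vars* (119 CPM), *Mars1* (36.8), *Cars2* (39.4) and *Sars2* (18.6), where the next WT values were 70.7, 27.1, 17.4 and 6.14 CPM, and it also had the highest WT share of ribosomal RNA, with 1.57%. The left limb tumor of N42 was high for *Tars*, with 143 CPM, and the spine tumor of N43 was low for *Ears2*, with 2.58 CPM.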

How the results depend on the processing

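The median log2 fold change of the 37 synthetase genes stayed between 0.29 and 0.54 over 28 alternatives, and 0 genes were called lower in any of them. The number called higher, 2 of 37, was 4 with RLE size factors, 1 without the filter on low counts, 9 in DESeq2, 0 in limma-voom with mice as random effects, 0 with counts summed per mouse, 0 without N42 and 0 with the ribosomal RNA share as a covariate, and, in alternatives chosen after seeing the data, 9 without Massa and Grilka and 1 without Montana and Oregon. Over all genes the share called, 4.01%, was in the same order 4.07%, 2.71%, 12.5%, 0.11%, 0.0625%, 0.0498%, 0.0454%, 5.36% and 2.25%, so that the counts of 0 came where almost no gene was called. Leaving out 1 tumor gave from 1 to 8, and from 1.62% to 8.52% over all genes. The number of related genes called, 1 of 51, was in that order 2, 0, 8, 0, 0, 0, 0 and 6 and stayed 1 without Montana and Oregon, and it was 2 without the N25 tumor, with Medusa and Ohio as the only KO tumors, or without ribosomal RNA genes, *Mir6236* and *Lars2*. Leaving out 1 tumor gave from 0 to 5. *Lars2* stayed between 5.19 and 6.40 without 1 tumor and past the threshold. It was 4.63 in limma-voom, 5.23 per mouse, 4.94 without N42 and 4.23 with Medusa and Ohio, none past the threshold, and −0.068 with the ribosomal RNA covariate. The cause of these changes was not tested.

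Signs were followed over the alternatives for the synthetase genes and for *Tufm*, *Aimp1*, *Aimp2*, *Eef1e1*, *Atf4* and *Asns*. The other related genes were not followed in this way. One of them, *Eef1a2*, turned from 3.57 in edgeR to −2.33 in DESeq2 (adjusted p = 0.209 and 0.0905). Among the genes followed, apart from *Lars2*, signs turned only in genes that were not past the threshold on either side. There were 61 such cases in 16 genes (lowest adjusted p 0.394), on the log2 scale as follows. With Medusa and Ohio these were *Nars* (−0.072), *Iars2* (−0.25), *Gars* (0.021), *Qars* (−0.040), *Dars* (−0.081), *Wars* (−0.11), *Rars2* (0.31), *Nars2* (0.15), *Pars2* (0.15), *Tars* (0.073) and *Asns* (−0.057). Without N42 they were *Gars* (0.072), *Rars2* (0.022), *Nars2* (0.31), *Wars2* (−0.030), *Pars2* (0.024) and *Tars* (0.53). With the ribosomal RNA covariate they were *Rars2* (0.30), *Cars2* (−0.090), *Mars2* (0.047), *Nars2* (0.63) and *Pars2* (0.35), in DESeq2 *Rars2* (0.11), *Nars2* (0.013) and *Pars2* (0.043), in limma-voom *Rars2* (0.067), *Nars2* (0.018) and *Tars* (0.22), per mouse *Nars2* (0.10), *Pars2* (0.019) and *Tars* (0.19), with RLE *Rars2* (0.027) and *Tars* (0.0024), without the filter *Iars2* (−0.026), without the N25 tumor *Rars2* (0.012), and without ribosomal RNA genes *Rars2* (0.042). Without Massa and Grilka they were *Rars2* (0.14), *Nars2* (0.19) and *Pars2* (0.11), and without Montana and Oregon *Iars2* (−0.35), *Rars2* (0.045) and *Aimp2* (−0.081). Over the fits that left out 1 tumor, *Rars2* ran from −0.075 to 0.088, *Nars2* from −0.20 to 0.11, *Iars2* from −0.14 to 0.16, *Tars* from −0.15 to 0.33, *Tars2* from −0.058 to 1.70, *Wars2* from −0.051 to 0.37, *Qars* from −0.048 to 0.22, *Pars2* from −0.27 to 0.0018 and *Asns* from −0.17 to 0.90.

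No paired analysis was possible because KO and WT have no mouse in common and the labels give no replicate numbers. Depth limits the low genes most, since 3 counts stood for 6.69 CPM in Massa and 4.03 CPM in Grilka, near the WT levels of *Pars2* and *Ears2*, and the 4 WT mice limit every comparison over mice.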
